A study of Mus musculus with 10 samples.

Results

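Lipid-associated macrophages are the macrophages that gather around dying fat-laden cells in obese adipose tissue and fatty liver. Genes used to recognise them include the 10 followed here in livers of mice labelled as carrying a knockout of Acss2 in liver cells. The genes are Trem2, Clec7a, Itgax, Cd9, Cd63, Gpnmb, Atp6v0d2, Fabp5, Lgals3 and Mmp12, taken by symbol from the 56748 genes of a read count table, and each symbol matched 1 gene. The libraries were made from liver, 5 labelled ACSS2-HKO (HKO) and 5 labelled ACSS2-flox (flox), the floxed controls. Mice of both groups had been on a high-fat high-fructose feed over 4 months, a feeding regime used to bring about fatty liver disease, and no group was on another diet. The labels used here name no Cre line, sex, strain, age or number of mice, and they do not state that each library came from a separate animal, so the p-values measure the spread between these libraries.

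As background, these macrophages arise largely from recruited monocytes and depend on TREM2, a surface receptor that binds lipids, lipoproteins and debris of dead cells and signals through the adaptor TYROBP and the kinase SYK. They take up lipid, break it down in lysosomes and express genes for lipid binding, lysosomal acidification and matrix remodelling. Several of the 10 genes are also used by other cells. CD9 and CD63 are tetraspanins found on many cell types, FABP5 is a fatty acid binding protein of several tissues, and CD11c, the product of Itgax, is also a dendritic cell marker. In such bulk liver RNA, fewer cells of a type and less RNA per cell cannot be told apart.

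The HKO libraries held 15413648 to 19275358 counts each, and the flox libraries 16933436 to 17196774. Acss2 was read in every library, at 52.8, 58.99, 43.8, 40.2 and 51.4 CPM in HKO replicates 1 to 5, against 73.2, 86.9, 56.5, 129 and 58.6 CPM in flox replicates 1 to 5 (CPM, the counts of a gene scaled to library size by the TMM method). HKO replicate 2 lay above flox replicates 3 and 5, so the groups overlapped, and the HKO mean was 61.2% of the flox mean. Its log2 fold change of -0.71 ± 0.21 (SE, HKO over flox) did not pass the gene test (edgeR adjusted p = 0.0858, and 0.07596 without flox replicate 5). It passed in 4 of 17 alternatives, among them the fit without a filter on low counts (edgeR adjusted p = 0.0433) and DESeq2 (0.0346, the lowest), and the highest adjusted p was 0.186. The level of the targeted gene thus did not separate the labelled groups, and the opposite strand holds Gss, an overlapping gene with 92.4% of its counts. Hepatocyte genes were abundant in all libraries. The 10 hepatocyte markers summed to between 115083 and 153873 CPM in HKO, and to between 110365 and 146234 CPM in flox replicates 1 to 4, and the lowest sum, 95032 CPM, was in flox replicate 5. That library stands apart for most of the 10 genes, so their fold changes are given with and without it.

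The lipid-associated macrophage genes fell into 3 patterns. Atp6v0d2, Clec7a and Lgals3 fell in HKO with and without flox replicate 5, but when 1 more library was left out beside flox replicate 5, Clec7a kept its call in 1 of 9 fits and Lgals3 in 6 of 9, and Atp6v0d2 in 9 of 9. Itgax and Cd63 did not pass, and the size of their difference depended on flox replicate 5, while Trem2, Gpnmb and Mmp12 had too few counts to enter the main test. Cd9 and Fabp5 did not pass in either direction. Of the 10 genes, 7 passed the filter and were tested, and 3 of them fell at an adjusted p under 0.05 by edgeR's quasi-likelihood test with Benjamini-Hochberg adjustment over 14068 genes, and 0 rose. Among all tested genes 3.07% fell and 0.917% rose. Without flox replicate 5 these 3 genes, Atp6v0d2, Clec7a and Lgals3, again fell, beside 1.82% falling and 0.716% rising of 14237 tested genes, and 0 rose. DESeq2 also called 3 of the 10 lower, where it called 5.1% of all tested genes lower and 2.16% higher. The 3 that failed the filter, Trem2, Gpnmb and Mmp12, are covered by a fit without that filter over 28708 genes, in which 6 of the 10 fell, against 2.18% of all. That share also covers genes with too few counts to be called. By exact permutation of the library labels, p was 0.143 for Gpnmb and 0.238 for Mmp12 with all libraries. In the fit without the filter and without flox replicate 5, 3 of the 10 fell, against 1.67% of all. The median log2 fold change of the 7 tested genes was -1.86 with all libraries and -0.86 without flox replicate 5, while over all tested genes it was 0.0083 and 0.013. Over all 10 genes in the fits without the filter the median was -2.14, and -1.13 without flox replicate 5, against 0.0099 and -0.0013 over all genes. The count of fallen genes also rested on single libraries, since 1 fell without HKO replicate 1, 1 without HKO replicate 5 and 4 without flox replicate 4. The added gene there is Trem2, which enters the test through its high flox libraries once the low one is left out, so that count is given as a description.

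The 250 bases upstream of the annotated start were read for the 8 members that had a window in the RefSeq promoter table of GRCm38.p6, to see what the promoters of genes that were high together in flox replicate 5 hold. The first listed window of each gene was read. Mmp12 and Clec7a had 2 windows each, so their matches hold for 1 of 2 annotated starts. The search covered both strands for the letters GAGGAAG, a core of the site of the myeloid factor PU.1. It also covered TGANTCA, a loose form of the AP-1 site with any middle base, where the usual site has C or G. The others were CACGTG, the E-box of the lysosomal regulators MITF and TFEB, and the CCAAT box. The paired AGGTCA repeats of PPAR and LXR receptors (the direct repeats named DR1 and DR4) were searched as well. The PU.1 letters were found in Trem2, Mmp12 and Cd63 and in 10.4% of 27025 promoter windows of this length. The AP-1 letters were found in Trem2, with A in the middle, in Itgax, with G in the middle, and in 6.87% of all windows. CCAAT was found in Trem2, Itgax, Lgals3 and Clec7a and in 34.5% of all. CACGTG was in 0 of the 8 windows and in 6.05% of all windows, and the PPAR and LXR repeats were in 0 of the 8 windows and in 0.037% and 0.0111% of all. The 4 windows with a PU.1 or AP-1 match are shown 5′ to 3′ with all matches in capitals, on whichever strand they lie, and no match overlaps another.
Trem2, chr17:48346151-48346400, plus strand: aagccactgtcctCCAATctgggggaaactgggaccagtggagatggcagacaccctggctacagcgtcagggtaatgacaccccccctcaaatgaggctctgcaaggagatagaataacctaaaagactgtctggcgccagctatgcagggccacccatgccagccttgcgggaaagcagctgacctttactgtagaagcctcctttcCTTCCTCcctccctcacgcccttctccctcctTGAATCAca
Mmp12, chr9:7344147-7344396, plus strand: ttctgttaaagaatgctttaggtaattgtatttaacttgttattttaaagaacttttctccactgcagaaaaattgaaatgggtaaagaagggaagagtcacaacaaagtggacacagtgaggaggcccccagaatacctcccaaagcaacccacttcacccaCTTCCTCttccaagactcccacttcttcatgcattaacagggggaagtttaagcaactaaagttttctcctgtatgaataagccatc
Cd63, chr10:128909095-128909344, plus strand: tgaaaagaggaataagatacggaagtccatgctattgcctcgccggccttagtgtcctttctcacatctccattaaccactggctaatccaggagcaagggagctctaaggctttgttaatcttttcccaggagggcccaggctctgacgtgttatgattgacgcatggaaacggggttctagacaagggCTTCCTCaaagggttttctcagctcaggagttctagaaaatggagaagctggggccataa
Itgax, chr7:128129300-128129549, plus strand: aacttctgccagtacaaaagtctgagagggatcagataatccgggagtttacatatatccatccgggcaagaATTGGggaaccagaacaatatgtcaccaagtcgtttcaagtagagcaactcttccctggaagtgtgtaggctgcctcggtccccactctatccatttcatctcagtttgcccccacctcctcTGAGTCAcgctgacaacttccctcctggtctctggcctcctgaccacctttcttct
In Trem2 the AP-1 letters lie at -9 to -3 and the PU.1 letters at -41 to -35, counted from the base before the start as -1. The matches are letters only, and no binding was measured.

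Among the surface receptors, Trem2, the lipid receptor after which these macrophages are often named, was a rare transcript. Its gene lies on chromosome 17 from 48653429 to 48661175 as the deposited table gives it, on a build that is uncertain. It had 4, 3, 4, 4 and 3 counts in HKO replicates 1 to 5, against 13, 13, 20, 4 and 70 counts in flox replicates 1 to 5, or 0.259, 0.189, 0.264, 0.257 and 0.165 CPM in HKO and 0.795, 0.792, 1.09, 0.229 and 3.53 CPM in flox. The HKO libraries were all low and close to each other, 4 flox libraries were higher than every HKO library, and flox replicate 4 lay within the HKO range. In the fit without a filter on low counts the log2 fold change was -2.47 ± 0.58 (SE, edgeR adjusted p = 0.0118), and -1.65 ± 0.56 without flox replicate 5 (edgeR adjusted p = 0.156). By exact permutation of the library labels, two-sided and on log2 CPM, p was 0.0317 (n = 5 and 5) and 0.0635 without flox replicate 5, where 0.00794 and 0.0159 are the smallest values the design allows. Trem2 passed the filter when 1 of the HKO libraries was left out (edgeR adjusted p = 0.0648 to 0.097). It also passed the filter when flox replicate 4, the flox library with 4 counts, was left out (edgeR adjusted p = 0.0152). Entry through the libraries where a gene is high favours a difference, so these values are given as a description.

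Clec7a, which encodes Dectin-1, the receptor for fungal beta-glucan that signals through SYK, fell. Clec7a had 1.56, 3.59, 1.72, 2.63 and 1.21 CPM in HKO replicates 1 to 5, against 5.63, 5.12, 5.35, 5.96 and 18.1 CPM in flox replicates 1 to 5. Flox replicates 1 to 4 lay within a narrow band, all 5 HKO libraries lay below it, and flox replicate 5 stood well above it. The means were 2.14 ± 0.966 CPM in HKO and 8.04 ± 5.65 CPM in flox (SD, n = 5 each), with a log2 fold change of -1.91 ± 0.41 (SE, edgeR adjusted p = 0.02102). Without flox replicate 5 the flox mean was 5.51 ± 0.364 CPM (SD, n = 4) and the log2 fold change -1.36 ± 0.298 (SE, edgeR adjusted p = 0.0345). The exact permutation p was 0.00794 with all libraries and 0.0159 without flox replicate 5 (n = 5 and 4), each the smallest the design allows. Without flox replicate 5 the call was lost when any further library but HKO replicate 2 was left out (edgeR adjusted p = 0.0532 to 0.0826). With flox replicate 5 in the fit, leaving out HKO replicate 1 or 5 ended the call (edgeR adjusted p = 0.0555 and 0.0507). Across the 17 alternatives its adjusted p lay between 0.00017 and 0.0555. In the deposited coordinates Clec7a spans chromosome 6 from 129438554 to 129449742, minus strand.

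Itgax, the integrin alpha chain CD11c, did not pass. Itgax had 0.907, 0.378, 1.25, 0.129 and 1.43 CPM in HKO replicates 1 to 5, against 0.979, 1.03, 2.62, 1.38 and 8.97 CPM in flox replicates 1 to 5. Flox replicate 5 was the highest library, and the other flox libraries overlapped with HKO. The log2 fold change was -1.86 ± 0.68 (SE, edgeR adjusted p = 0.163) and -0.86 ± 0.53 without flox replicate 5 (edgeR adjusted p = 0.544).

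Neither of the tetraspanin genes passed. Cd9 encodes a tetraspanin of the cell surface that organises adhesion and fusion, and it was the most abundant of the 10 genes per transcript length in both groups. Cd9 had 13.03, 11.2, 17.8, 13.6 and 17.6 CPM in HKO replicates 1 to 5, against 17.6, 14.01, 10.1, 12.7 and 26.9 CPM in flox replicates 1 to 5. The groups overlapped fully apart from flox replicate 5, the highest library. Its log2 fold change was -0.15 ± 0.24 (SE, edgeR adjusted p = 0.818), and leaving out flox replicate 5 gave 0.11 ± 0.196 (edgeR adjusted p = 0.875). The 95% interval of the second value was -0.35 to 0.58, on the log2 scale.

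Cd63 encodes a tetraspanin of late endosomes and lysosomes. Cd63 had 2.98, 3.15, 3.04, 1.67 and 1.598 CPM in HKO replicates 1 to 5, against 3.43, 3.17, 3.66, 1.78 and 28.1 CPM in flox replicates 1 to 5. In flox replicate 5 it stood 9.35 times above the mean of the other flox libraries, which overlapped with HKO. The log2 fold change of -1.697 ± 0.66 (SE, edgeR adjusted p = 0.191) became -0.27 ± 0.31 without that library (edgeR adjusted p = 0.791).

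**Figure D1:**
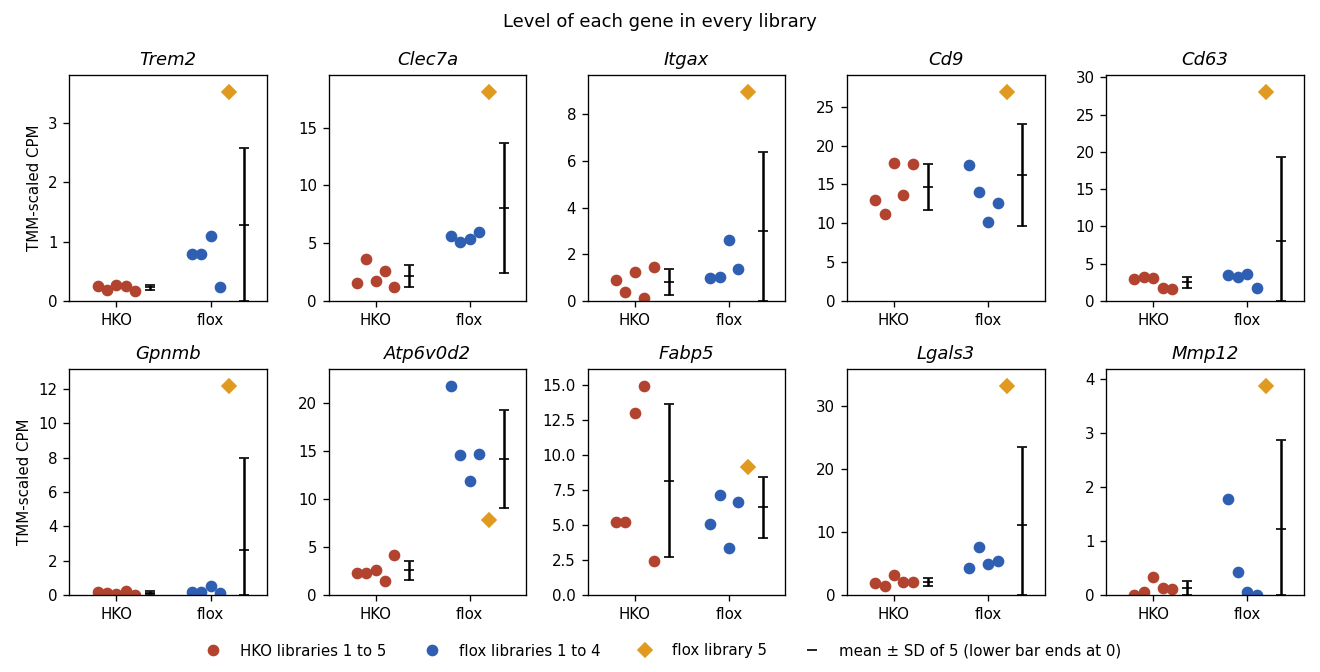
Level of each of the 10 genes in TMM-scaled CPM (linear axis from 0, different for each gene) in the 5 HKO and 5 flox libraries, with flox replicate 5 as an orange diamond and the mean ± SD of each group as a black bar. Atp6v0d2 is the gene whose flox libraries 1 to 4 stand above flox library 5, while in 8 of the 10 genes flox library 5 is the highest of all 10.

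Of the genes of the lysosome and of lipid handling, Atp6v0d2 fell. It encodes the d2 subunit of the membrane part of the V-ATPase, the proton pump that acidifies lysosomes, and is known from macrophages and osteoclasts. Atp6v0d2 had 2.27, 2.27, 2.64, 1.41 and 4.19 CPM in HKO replicates 1 to 5, against 21.8, 14.6, 11.8, 14.7 and 7.81 CPM in flox replicates 1 to 5. All 5 HKO libraries lay below all 5 flox libraries, and flox replicate 5 was the lowest of the flox group. Among the 14068 tested genes, 3.46% had all HKO libraries below all flox libraries, and 3.95% had them below flox replicates 1 to 4. Lgals3 and Clec7a were the other members with this separation. The HKO mean was 18.1% of the flox mean, from 209 counts in HKO and 1226 in flox. The log2 fold change was -2.46 ± 0.31 (SE, edgeR adjusted p = 0.00197), and -2.61 ± 0.28 without flox replicate 5 (edgeR adjusted p = 0.00273). The exact permutation p was 0.00794 (n = 5 and 5) and 0.0159 without flox replicate 5 (n = 5 and 4). It passed under all 17 alternatives, with an adjusted p of 2.84e-12 to 0.00771 and a log2 fold change of -2.72 to -2.25. Atp6v0d2 spans chromosome 4 from 19876841 to 19922605, minus strand, in the deposited coordinates. Its paralogue Atp6v0d1, the d1 subunit found in most cells, had 65.9 ± 6.98 CPM in HKO and 68.9 ± 12.2 CPM in flox (SD, n = 5 each), with a log2 fold change of -0.065 ± 0.14 (SE, edgeR adjusted p = 0.876). The difference between the 2 paralogues was not tested.

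Gpnmb, which encodes a glycoprotein of lysosomes and melanosomes that is induced in lipid-laden macrophages, was close to the limit of detection in 9 of the 10 libraries. It had 3, 2, 1, 4 and 0 counts in HKO replicates 1 to 5, against 3, 3, 9, 2 and 242 counts in flox replicates 1 to 5. In CPM flox replicate 5 stood at 12.2 and no other library above 0.491, where 3 counts were worth 0.151 to 0.198 CPM. In the fit without a filter the log2 fold change of -4.31 ± 1.01 (SE, edgeR adjusted p = 0.01104) became -0.9 ± 0.81 without flox replicate 5 (edgeR adjusted p = 0.686). At this depth no difference between HKO and the other flox libraries was detectable.

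Fabp5, the carrier that takes fatty acids through the cytosol, had a higher mean in HKO and did not pass. It was the member of which this was so with all libraries, while Cd9 also had a higher HKO mean without flox replicate 5. Fabp5 had 5.25, 5.23, 13.02, 14.97 and 2.42 CPM in HKO replicates 1 to 5, against 5.08, 7.12, 3.33, 6.65 and 9.12 CPM in flox replicates 1 to 5. HKO replicates 3 and 4 were the highest of all 10 libraries and HKO replicate 5 the lowest, so the HKO group spanned the flox group. The log2 fold change was 0.38 ± 0.42 (SE, edgeR adjusted p = 0.713), and 0.56 ± 0.45 without flox replicate 5 (edgeR adjusted p = 0.677). Its 95% interval with all libraries was -0.59 to 1.35 on the log2 scale.

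Among the secreted products, Lgals3, which encodes galectin-3, a sugar-binding lectin released by macrophages, fell. Lgals3 had 1.94, 1.45, 3.17, 1.99 and 2.04 CPM in HKO replicates 1 to 5, against 4.22, 7.61, 4.97, 5.44 and 33.2 CPM in flox replicates 1 to 5. The 5 HKO libraries lay below all flox libraries, and flox replicate 5 stood 5.98 times above the mean of the other flox libraries. The means were 2.12 ± 0.634 CPM in HKO and 11.1 ± 12.4 CPM in flox (SD, n = 5 each), with a log2 fold change of -2.39 ± 0.55 (SE, edgeR adjusted p = 0.0259). Without flox replicate 5 the flox mean was 5.56 ± 1.46 CPM (SD, n = 4). The log2 fold change was then smaller, -1.39 ± 0.27, as was its SE, and the gene passed (edgeR adjusted p = 0.0218), but not when HKO replicate 1, HKO replicate 4 or flox replicate 2 was left out as well (edgeR adjusted p = 0.0572, 0.052 and 0.078). The exact permutation p was 0.00794 (n = 5 and 5) and 0.0159 without flox replicate 5 (n = 5 and 4). With flox replicate 5 in the fit the call was lost without HKO replicates 1, 2, 4 or 5 and with robust dispersion (edgeR adjusted p from 0.0524 to 0.0661). Across the 17 alternatives its adjusted p lay between 0.000742 and 0.0661.

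Mmp12, macrophage metalloelastase, an enzyme that degrades elastin, was read from few counts. It had 0, 1, 5, 2 and 2 counts in HKO replicates 1 to 5, against 29, 7, 1, 0 and 77 counts in flox replicates 1 to 5. Flox replicates 1, 2 and 5 stood above every HKO library, while flox replicate 4 had 0 counts and flox replicate 3 had 1 count. The log2 fold change in the fit without a filter was -3.22 ± 0.88 (SE, edgeR adjusted p = 0.0393), and -2.08 ± 0.87 without flox replicate 5 (edgeR adjusted p = 0.3401). The exact permutation p was 0.238 for Mmp12 and 0.143 for Gpnmb (n = 5 and 5).

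**Figure D2:**
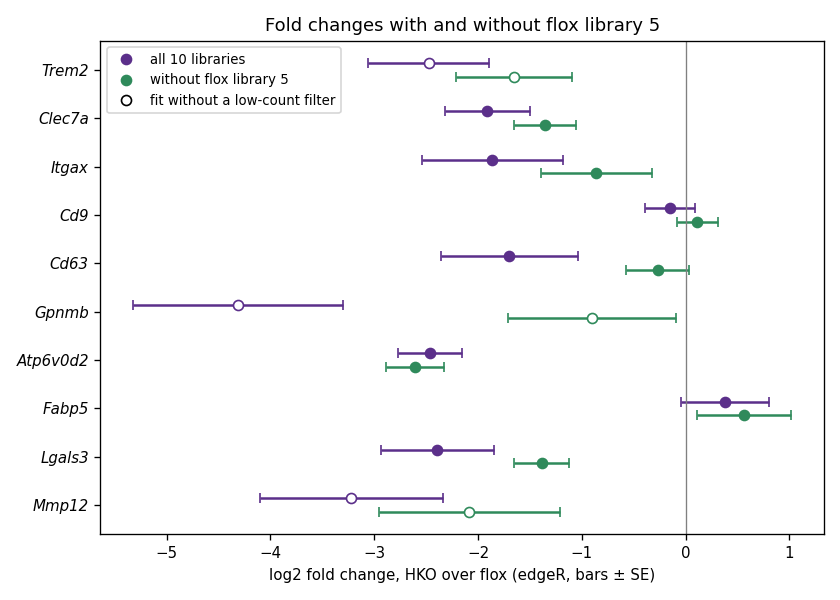
Log2 fold change of each gene, HKO over flox, with its standard error, in the fit of all 10 libraries (purple) and without flox library 5 (green). Open symbols mark the 3 genes that failed the filter on low counts and come from the fit without it. The Atp6v0d2 pair lies at -2.46 and -2.61, while the Cd63 pair lies at -1.70 and -0.27.

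Per transcript length the order of the genes changed between the groups. In TPM, a length-corrected share of transcripts computed from the counts and gene lengths of the table, HKO livers had 16.01 ± 2.89 TPM of Cd9, 5.12 ± 3.37 of Fabp5, 2.55 ± 0.729 of Lgals3 and 2.11 ± 0.807 of Atp6v0d2 (SD, n = 5). Flox livers had 21.4 ± 11.4 TPM of Cd9, 17.1 ± 21.6 of Lgals3, 13.3 ± 4.04 of Atp6v0d2 and 8.45 ± 7.24 of Clec7a. Clec7a and Cd63 followed in HKO, at 1.84 ± 0.897 and 1.52 ± 0.509 TPM. From Lgals3 down to Cd63 each HKO mean differed from the next by less than 1 SD of either gene. In flox the SD exceeded the mean for Trem2, Gpnmb, Mmp12, Itgax, Lgals3 and Cd63, and Fabp5 and Itgax, next to each other in the order, had 4.68 ± 2.08 and 1.79 ± 2.27 TPM. Flox replicates 1 to 4 alone held 16.5 ± 3.46 TPM of Cd9 and 14.4 ± 3.702 of Atp6v0d2 (n = 4), which also lie within each other's spread. Trem2, Gpnmb and Mmp12 were the rarest in HKO, at 0.103 ± 0.02002, 0.0444 ± 0.0345 and 0.0389 ± 0.03801 TPM.

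Flox replicate 5 was the highest of the 10 libraries for 8 of the 10 genes, the exceptions being Atp6v0d2 and Fabp5. It was the highest for 13.7% of all tested genes and for 12.8% of all genes with a count. For 7 of the genes it stood at least 2-fold above the mean of flox replicates 1 to 4, by 3.29-fold for Clec7a up to 50.2-fold for Gpnmb, against 4.59% of all tested genes. A score, the mean log2 CPM of the 10 genes after centring each over the libraries, was -0.71, -0.76, -0.27, -0.7 and -0.83 in HKO replicates 1 to 5, against 0.49, 0.33, 0.21, -0.16 and 2.39 in flox replicates 1 to 5. Flox replicate 4 was at -0.16 for the 10 genes and at 1.17 and 1.57 for macrophage and Kupffer cell markers. Flox replicate 5 also had the highest scores for macrophage (1.54), dendritic cell (0.67), endothelial (0.48), monocyte (1.71), stellate cell (1.04) and cholangiocyte markers (1.02) and the lowest for hepatocyte markers (-0.27). The part of these cell types in the values of flox replicate 5 was not tested.

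**Figure D3:**
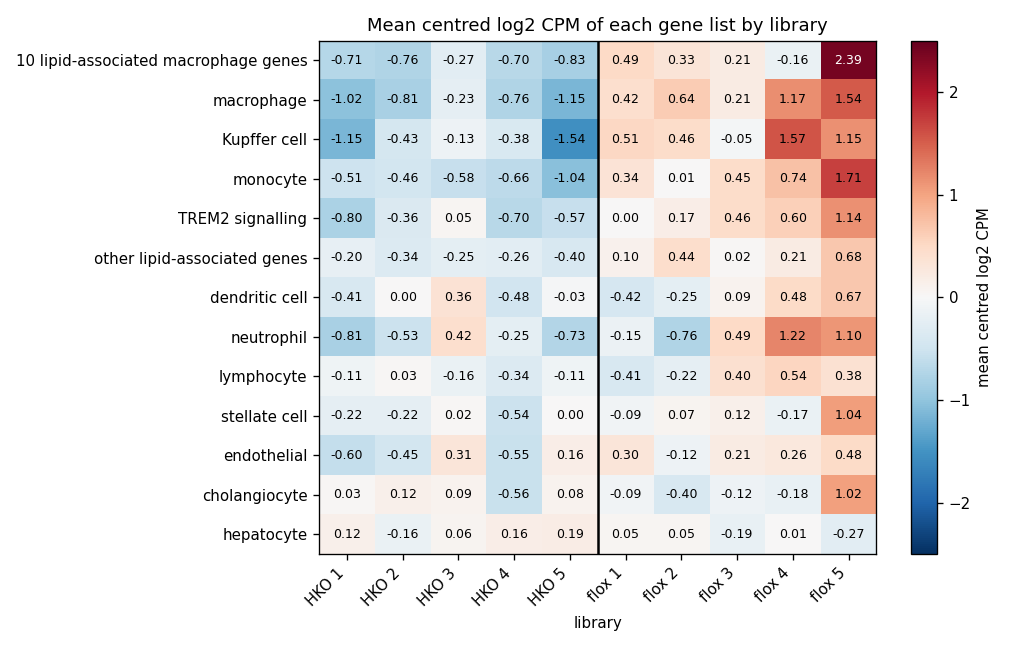
Mean centred log2 CPM of 13 gene lists (rows) in each library (columns, HKO left of flox); red is above and blue below the list's mean over the 10 libraries. The 10 lipid-associated macrophage genes peak in flox library 5 at 2.39, while the Kupffer cell markers peak in flox library 4 at 1.57.

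General macrophage markers fell, with the receptor kinase gene Mertk as the exception. Of 14 macrophage markers tested, 13 fell and 0 rose (median log2 fold change -1.72), and 11 fell without flox replicate 5, with a median of -1.43. Beside these and the counts below, 3.07% of all tested genes fell, and 1.82% without flox replicate 5. Mpeg1, the gene of a pore-forming protein of phagosomes, had a log2 fold change of -1.67 ± 0.23 (SE, edgeR adjusted p = 0.00334), and Fcer1g, the shared gamma chain of Fc receptors, one of -1.45 ± 0.21 (edgeR adjusted p = 0.00472). C1qb, of the first complement component, and Csf1r, the receptor for macrophage growth factor, had log2 fold changes of -1.71 ± 0.26 and -1.76 ± 0.28 (SE, edgeR adjusted p = 0.00602 and 0.00621), and Csf1r overlaps Hmgxb3 on the other strand. For Mpeg1, Fcer1g, C1qb and Csf1r, leaving out flox replicate 5 gave log2 fold changes of -1.51, -1.31, -1.54 and -1.5 (edgeR adjusted p = 0.00701, 0.00977, 0.0115 and 0.00942). The summed level of the 14 markers was 118 to 209 CPM in HKO, against 278 to 552 CPM in flox replicates 1 to 4 and 700.4 CPM in flox replicate 5. None of the 14 was at 0 in all libraries. Of 8 markers of resident Kupffer cells, which are not lipid-associated macrophages, 6 fell and 4 fell without flox replicate 5, with medians of -1.43 and -1.25. Cd5l, a secreted scavenger protein of resident macrophages, had a log2 fold change of -2.01 ± 0.32 (SE, edgeR adjusted p = 0.00621), and the complement receptor gene Vsig4 one of -1.44 ± 0.26 (edgeR adjusted p = 0.0105). Clec4f, a lectin of Kupffer cells, and Timd4, a receptor for dying cells, had log2 fold changes of -1.13 ± 0.23 and -1.6 ± 0.33 (SE, edgeR adjusted p = 0.0156 and 0.0176). For Cd5l, Vsig4, Clec4f and Timd4, leaving out flox replicate 5 gave log2 fold changes of -1.84, -1.33, -1.05 and -1.56 (edgeR adjusted p = 0.0153, 0.02396, 0.0398 and 0.0391). Of 5 tested monocyte markers, 2 fell, Ly6c2 (-2.27 ± 0.45, edgeR adjusted p = 0.0155) and Plac8 (-1.27 ± 0.29, edgeR adjusted p = 0.0262). Without flox replicate 5 the values were -1.95 for Ly6c2 (edgeR adjusted p = 0.0354) and -1.03 for Plac8 (edgeR adjusted p = 0.0671, not passed). Ly6c2 had 38 counts over the HKO libraries and 212 over the flox libraries. A gene this low in HKO can enter the main test through the flox libraries, where it is high. In the fit without a filter on low counts Ly6c2 also fell (edgeR adjusted p = 0.0021). The count was 1 when any of flox replicates 4 and 5 and HKO replicates 1, 2, 4 and 5 was left out.

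The 10 genes were also set against the macrophage markers. The mean log2 CPM of the 14 markers was 1.59 lower in HKO than in flox, so that the median tested gene stood 1.598 higher in HKO relative to them, and 64.4% of tested genes had all HKO libraries above all flox libraries on this relative scale. Relative to the markers, the HKO minus flox difference in log2 CPM was -0.026 for Trem2, -0.17 for Clec7a and -0.28 for Lgals3, and the groups overlapped in each. Against flox replicates 1 to 4 alone it was 0.24 for Trem2, -0.011 for Clec7a and 0.05 for Lgals3. The sign thus turned for Lgals3 and, from few counts, for Trem2. For Gpnmb, Mmp12, Itgax and Cd63 the differences were -0.0082, 0.13, 0.097 and 0.67, and against flox replicates 1 to 4 alone 0.84, 0.63, 0.43 and 1.13. The markers themselves differed by -1.403 between HKO and flox replicates 1 to 4. Gpnmb and Mmp12 had 10 counts each over the HKO libraries, and 17 and 37 over flox replicates 1 to 4. A gene near the floor in both groups stands higher in HKO on this scale because the markers are lower there. The difference was -0.83 for Atp6v0d2, or -1.21 against flox replicates 1 to 4, for which flox replicate 5 lay at -1.098 and flox replicates 1 to 4 between 0.18 and 1.48, while HKO ran from -1.17 to 0.71. Cd9 and Fabp5, at 1.498 and 1.755, were near the median of all genes, with all HKO above all flox libraries. In flox replicate 5, Gpnmb stood 3.41 above its own mean relative to the markers, and Mmp12, Cd63 and Lgals3 stood 1.903, 1.502 and 1.47 above theirs. These relative values were chosen after the data had been seen and have no test.

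**Figure D4:**
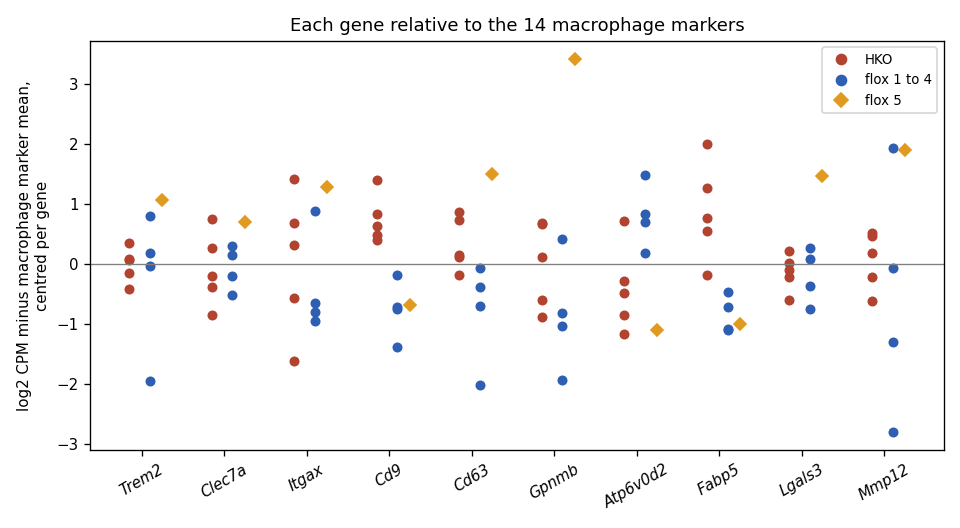
Log2 CPM of each gene minus the mean log2 CPM of 14 macrophage markers, centred per gene over the 10 libraries, for HKO (red), flox libraries 1 to 4 (blue) and flox library 5 (orange diamonds). All HKO points lie above all flox points for Cd9 and Fabp5, as for 64.4% of tested genes, and Gpnmb in flox library 5 is the highest point at 3.41.

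Of 12 genes for signalling below TREM2 and Dectin-1, 10 were tested, and 5 fell and 0 rose, beside 3.07% falling of all tested genes. The median over the 10 was a log2 fold change of -1.08, against -0.999 when flox replicate 5 was left out. The exchange factor gene Vav1 had 1.52 ± 0.189 CPM in HKO and 5.26 ± 2.61 CPM in flox (SD, n = 5 each), and the phospholipase gene Plcg2 had 0.584 ± 0.226 CPM in HKO and 2.396 ± 1.19 CPM in flox. Their log2 fold changes were -1.79 ± 0.32 and -2.03 ± 0.39 (SE, edgeR adjusted p = 0.0106 and 0.01398). For Vav1 and Plcg2, leaving out flox replicate 5 gave log2 fold changes of -1.48 and -1.66 (edgeR adjusted p = 0.0192 and 0.0261). Tyrobp, the adaptor of TREM2, had a log2 fold change of -1.61 ± 0.33 (SE, edgeR adjusted p = 0.0173) and of -1.36 without flox replicate 5 (edgeR adjusted p = 0.0409). It is also counted among the macrophage markers above. Syk fell by 1.21 on the log2 scale (SE 0.28, edgeR adjusted p = 0.0297), and did not pass without flox replicate 5 (edgeR adjusted p = 0.0788) or without any of HKO replicates 1, 2, 4 and 5 (edgeR adjusted p = 0.0627 to 0.0778). The count of 5 was 3 without each of these 5 libraries.

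Other genes reported for lipid-associated macrophages and for the handling of lipid in lysosomes were mostly not called. Of 21 genes, 20 were tested, of which 6 fell, 0 rose and 14 did not pass, with a median log2 fold change of -0.45. The share of all tested genes that fell was 3.07%. DESeq2 called 7 lower and 1 higher, Plin2, which coats lipid droplets (log2 fold change 0.81, DESeq2 adjusted p = 0.0379, named after its value was seen). Without flox replicate 5, 3 fell, with a median of -0.35, and 3 also fell without HKO replicates 2, 4 or 5. Cd36, the fatty acid receptor that is also made by hepatocytes, had 70.03 ± 26.04 CPM in HKO and 314 ± 172 CPM in flox (SD, n = 5 each; log2 fold change -2.17 ± 0.38, edgeR adjusted p = 0.00978). Lgals1, the galectin-1 gene, had 7.95 ± 1.84 CPM in HKO and 45.2 ± 39.5 CPM in flox, and its log2 fold change was -2.505 ± 0.46 (SE, edgeR adjusted p = 0.0116). Cd68, a lysosomal membrane protein of macrophages that is also counted among the macrophage markers, fell to 3.22 ± 0.737 CPM in HKO, against 10.99 ± 6.84 CPM in flox (edgeR adjusted p = 0.0154). For Cd36, Lgals1 and Cd68, leaving out flox replicate 5 gave log2 fold changes of -2.196, -2.62 and -1.32 (edgeR adjusted p = 0.01903, 0.0191 and 0.0218). The lysosomal protease gene Ctsb, which overlaps Fdft1 on the other strand, fell by 0.66 on the log2 scale (SE 0.15, edgeR adjusted p = 0.0231), and did not pass when any of flox replicates 2 and 5 and HKO replicates 1, 2, 4 and 5 was left out (edgeR adjusted p = 0.0501 to 0.0629).

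The nearest relatives of the 10 genes were compared as well. Of 24, 15 were tested, and 5 fell and 0 rose, with 3 falling without flox replicate 5 or without HKO replicate 1. Over all tested genes 3.07% fell, and 1.82% without flox replicate 5. The median log2 fold change was -0.61 and -0.65 without flox replicate 5. Itgal, the alpha chain of the leukocyte integrin LFA-1 and a relative of Itgax, had 6.05 ± 1.69 CPM in HKO and 17.8 ± 4.24 CPM in flox (SD, n = 5 each), with a log2 fold change of -1.56 ± 0.21 (SE, edgeR adjusted p = 0.002998). Lgals1, given above, is the relative of Lgals3 that fell. Clec4n, the gene of the lectin receptor Dectin-2, had a log2 fold change of -1.97 ± 0.36 (SE, edgeR adjusted p = 0.0113). For Itgal and Clec4n, leaving out flox replicate 5 gave log2 fold changes of -1.41 and -1.63 (edgeR adjusted p = 0.00701 and 0.0207). Treml4, of the TREM family, fell by 1.71 on the log2 scale (SE 0.37, edgeR adjusted p = 0.0215), and did not pass without flox replicate 5 or any of HKO replicates 1, 2 and 4 (edgeR adjusted p = 0.0513 to 0.0555).

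Markers of other cell types gave few calls, where 3.07% of all tested genes fell and 0.917% rose. Of the tested markers, 0 of 3 for dendritic cells, 0 of 3 for neutrophils, 0 of 10 for hepatocytes, 0 of 8 for stellate cells, 0 of 4 for cholangiocytes and 0 of 1 for adipocytes passed edgeR. At an unadjusted edgeR p under 0.05 the counts were 0, 2, 2, 3, 0 and 1, and DESeq2 called 1 neutrophil marker lower, S100a8, 1 hepatocyte marker higher, Ahsg, and 0 of the others. The dendritic cell markers, whose cells also carry CD11c, had a median log2 fold change of 0.23, and Clec9a one of -0.196 ± 0.33, which was 0.064 without flox replicate 3. The neutrophil markers had a median of -1.175, and -0.942 without flox replicate 5. S100a8 had a log2 fold change of -1.701 ± 0.55 (SE, edgeR adjusted p = 0.1135), from 63 counts in HKO and 238 in flox. With 3 tested markers, the missing calls do not show an unchanged level. Of 8 endothelial markers 1 fell, the cadherin gene Cdh5 (-0.87 ± 0.198, edgeR adjusted p = 0.0261), and of 6 lymphocyte markers 1 fell, the immunoglobulin gene Igkc (-1.62 ± 0.403, edgeR adjusted p = 0.0381), and 0 of either list fell without flox replicate 5. The hepatocyte gene Alb had a log2 fold change of 0.16 ± 0.21, the stellate cell gene Lrat -0.26 ± 0.27, the cholangiocyte gene Krt19 -0.46 ± 0.49, the endothelial gene Stab2 -0.45 ± 0.22, the T cell gene Cd3e -0.24 ± 0.52 and the adipocyte gene Cfd -1.5 ± 0.62 (SE), with edgeR adjusted p from 0.226 to 0.874. Each of these is the first tested gene of its list, and other members differed from it. Cd4, Cd8a, Des and Sox9 had log2 fold changes of 0.28, 0.598, 0.45 and 0.3. The collagen genes Col1a1 and Col3a1, of the stellate cell list, had -2.2 and -1.33, and -0.86 and -0.55 without flox replicate 5. None of these passed (edgeR adjusted p = 0.097 to 0.875 with all libraries). The part of these cell types in the levels of the 10 genes was not tested.

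The genes whose pattern over the 10 libraries was most like the mean of the 7 tested members were found by the root mean square difference of centred log2 CPM. They were Iqgap1, a scaffold of the actin cytoskeleton (difference 0.203), the kinase gene Stk10 (0.2101), Selplg, the leukocyte ligand of P-selectin (0.217), Mfge8, a bridging protein for the uptake of dying cells (0.227), and the pyruvate kinase gene Pkm (0.233). Iqgap1 had 7.58, 7.18, 8.46, 6.43 and 5.95 CPM in HKO replicates 1 to 5, against 16.6, 13.4, 11.4, 13.01 and 28.1 CPM in flox replicates 1 to 5, and as for 8 of the 10 genes its highest library was flox replicate 5. The copy Gm6560 of Pkm is nearly identical to it and had 28 counts in all, against 1840 for Pkm.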

How the data were processed

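RNA-seq read counts per gene of 10 mouse liver libraries were analysed, 5 HKO and 5 flox, grouped by their titles. The values deposited by the authors are raw counts of reads per gene in whole numbers, not divided by library size. Per the labels' protocols, total RNA went into libraries built with a VAHTS Universal V6 kit. The submitters' processing notes name mm10 and DESeq2, with aligner, counter, annotation and strandedness not given in the sources used here. The table's coordinates are on an uncertain build, since 2.83% of the 52073 identifiers shared with GENCODE M21 (GRCm38) had the same start and end there.

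The test of HKO against flox was the quasi-likelihood test of edgeR 4.0.16 (R 4.3.3) with TMM scaling and the filterByExpr filter, and p-values were adjusted by Benjamini-Hochberg over all tested genes with a threshold of 0.05. The SE was taken from the fold change and the F statistic (its size divided by root F), and 95% intervals from the t distribution with 8 residual degrees of freedom (7 without flox replicate 5). Log2 CPM used a prior count of 2. DESeq2 1.42.0 was an alternative, beside other scalings, filters, robust dispersion, the replicate number as a block and each library left out. Chi-square per degree of freedom between libraries of 1 group was at least 24.6, so no library looked deposited more than once. Counting limits (3 counts) cover counting error only. Transcripts of 52 genes were searched against GENCODE M21 with BLAST 2.17.0 for copies (identity of 95% or more across 50% or more of the transcript), and none of the 10 members had one.

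The members, lists and tests were chosen with earlier results of these data known. The genes named are the members, Acss2, up to 4 called genes with the smallest p in each macrophage-related list (or the 2 most abundant), the first tested and any called gene of each other list, and the 5 genes most like the members. Atp6v0d1, named as the paralogue of Atp6v0d2, Mertk, Plin2, Ahsg, and the genes most like Atp6v0d2, Lgals3 and Cd63 were chosen after their values were seen. The same holds for Cd4, Cd8a, Des, Sox9, Col1a1 and Col3a1.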

Additional observations from a re-analysis of the deposited data

Results flagged for a closer look

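Flox replicate 5 lay far from the other flox libraries in 6 of the 10 genes, by Dixon's test of the gap to the nearest library over the range of the group (past the 95% critical value for 5 libraries). The ratio was 0.969 for Gpnmb, 0.935 for Clec7a, 0.929 for Cd63, 0.883 for Lgals3, 0.794 for Itgax and 0.738 for Trem2. The 20 groups examined (10 genes, HKO and flox) gave these 6 flags, all in flox and all for flox replicate 5. The 6 flags come from 1 library and are not independent. That library had been singled out beforehand, with earlier results of these data known, so the flags are a description and no chance rate applies. The same library held 12.2 CPM of Gpnmb and 28.1 CPM of Cd63.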

How the results depend on the processing

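The 7 tested members were each refitted under 17 alternatives. Atp6v0d2 passed in all 17. Clec7a passed in 15 and Lgals3 in 12, and Itgax, Cd63, Cd9 and Fabp5 passed in none, though DESeq2 gave Cd63 no adjusted p. Leaving out 1 library, the Cd9 log2 fold change ran from -0.28 to 0.11 (0.11 without flox replicate 5). Leaving out 1 library gave 1 to 4 called members, 289 to 673 genes called against 561 (335, 289 and 354 without HKO replicates 1, 4 and 5, and 361 without flox replicate 5), and in the fits without flox replicate 5 1 to 3 called members (1 without HKO replicates 1 or 4 or flox replicate 2). Without a filter on low counts 6 members were called in place of 3, and DESeq2 called 1021 genes in place of 561. For the lists, leaving out 1 library gave 11 to 13 macrophage, 4 to 6 Kupffer cell, 1 to 2 monocyte, 3 to 7 other lipid-associated, 3 to 5 signalling and 3 to 5 related genes. Monocyte calls were 1 on genes with at least 1 CPM in 5 libraries. The cause of the other changes was not tested. The Clec9a log2 fold change ran from -0.38 to 0.064 (without flox replicate 3) and that of Cd3e from -0.47 to 0.086 (without flox replicate 5), and neither was called. With the replicate number as a block, 1 member was called without flox replicate 5 (adjusted p = 0.0715 for Clec7a and 0.0713 for Lgals3, which were lost), Ctsb was lost (0.0671), 3 other lipid-associated genes and 1 monocyte gene were called, and 448 genes in all. The numbers do not mark a known pairing. Same-numbered libraries had correlations of deviations from -0.121 to 0.24, and 0 of 5 flox libraries correlated best with its own number. Depth limits Trem2, Gpnmb and Mmp12, with 18, 10 and 10 counts over the HKO libraries.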

Other observations

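Atp6v0d2 was the member whose lowest flox level was in flox replicate 5. The genes most like it over the 10 libraries, chosen after its values were seen, were Cenpm (root mean square difference of centred log2 CPM 0.412), Vldlr (0.573), Tceal8 (0.593), Slc17a4 (0.6003) and Thrsp (0.61). Cenpm, the nearest, had 0.907, 0.63, 1.59, 0.321 and 1.54 CPM in HKO replicates 1 to 5, against 5.26, 4.75, 3.28, 3.04 and 2.37 CPM in flox replicates 1 to 5. Vldlr, a receptor for triglyceride-rich lipoproteins, had 3.24, 1.64, 3.17, 2.44 and 3.47 CPM in HKO replicates 1 to 5, against 21.2, 23.3, 18.1, 7.96 and 16.02 CPM in flox replicates 1 to 5. Thrsp, a regulator of lipogenesis in hepatocytes, had 37.3, 29.9, 16.98, 13.4 and 17.8 CPM in HKO, against 152, 110.0, 51.6, 182 and 77.7 CPM in flox. In none of the genes most like Atp6v0d2 was flox replicate 5 the highest library. In Slc17a4 it came next to the highest, at 69.2 CPM after 85.2 CPM in flox replicate 1. The genes most like Lgals3, also chosen after its values were seen, included Cd74, which encodes the MHC class II invariant chain (0.172), with 31.2, 24.6, 36.9, 26.7 and 31.2 CPM in HKO replicates 1 to 5, against 60.8, 96.9, 72.4, 67.2 and 367 CPM in flox replicates 1 to 5. The gene most like Cd63, chosen in the same way, was the fibrillar collagen gene Col3a1 (0.454), at 61.9 CPM in flox replicate 5. What these genes share with the members was not tested.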
